A study of Homo sapiens with 12 samples.

Results

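The genes described here encode enzymes that use NAD as a substrate to attach ADP-ribose to proteins: the poly(ADP-ribose) polymerases PARP1, PARP2, PARP3, PARP4, PARP6, PARP8, PARP10 and PARP12, and the tankyrases TNKS and TNKS2. They were taken by symbol from the deposited table of normalized counts. All 10 were found among its 36601 genes, and all 10 averaged at least 10 normalized counts over the libraries, the minimum for a test. KP4 is a human pancreatic ductal carcinoma cell line, labelled WT, and all cells came from this line. Plates received for 24 h DMSO as vehicle (DMSO), 10 mM metformin (Met), 5 nM FK866 (FK), or 10 mM metformin with 5 nM FK866 (Met+FK). Metformin inhibits complex I of the respiratory chain, which re-oxidizes NADH, and FK866 inhibits NAMPT, the enzyme that salvages nicotinamide into NAD. RNA depleted of ribosomal RNA was sequenced as read pairs, with 3 libraries per treatment and 12 in all. The labels number the libraries of a treatment as replicates without saying whether they were separate cultures, so the p-values measure only the spread between these samples, which may be technical.

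PARP enzymes split NAD into nicotinamide and ADP-ribose and place the ADP-ribose on proteins, as long chains or as single units. PARP1 and PARP2 build chains at DNA breaks, and strong PARP1 activity can drain the NAD pool of a cell, which NAMPT then refills from the released nicotinamide. Tankyrases build chains on proteins such as axins, which the ubiquitin ligase RNF146 then recognises and marks for degradation, while PARP6, PARP8, PARP10 and PARP12 add single ADP-ribose units.

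As recovered from the normalized counts, the libraries held between 30667735 and 41052203 read pairs assigned to genes. The smallest value above 0 of each library was taken as 1 read pair. Each member was covered by at least 65 read pairs in every library. PARP3 had from 65 to 161 read pairs and PARP10 from 73 to 189, the lowest coverage of the 10, and PARP1 had from 6530 to 11320. PARP10 (143977153 to 144012772, minus strand) and TNKS (9555912 to 9782346, plus strand) both lie on chromosome 8 of hg38, and the position of each other member is given with its values. Of the 6 markers of epithelium and pancreatic duct, none was at 0 in all libraries. KRT18 (9398 to 18721 normalized counts) and KRT8 (2217 to 3222) held most of their sum, while EPCAM had from 3.78 to 12.5 normalized counts. The summed level of this list ran from 21392 to 22295 in DMSO, 14168 to 18449 in FK, 12200 to 14799 in Met and 12219 to 15255 in Met+FK, and its part in the members' values was not tested. Of its 5 genes tested, 3 fell and 1 rose in Met, beside 25.9% of all genes down and 24.9% up. The riser was CDH1, at a mean of 47.4 normalized counts, by 1.07 (log2, adjusted p = 0.000831). The 7 markers of acinar and endocrine pancreas summed to 9.06 to 35.5 normalized counts per library, with CPA1, AMY2A and INS at 0. The 9 markers of immune, endothelial and fibroblast cells, with DCN at 0, summed to 1332 to 1428 in DMSO, 1283 to 1396 in FK, 1009 to 1060 in Met and 1075 to 1089 in Met+FK. Of the 4 tested, 4 fell in Met, among them COL1A1 by 1.15 (log2, adjusted p = 0.000181), while in FK COL1A1 rose by 0.91 (adjusted p = 0.0153) and CD68 fell by 0.33 (adjusted p = 0.0269). Their part in the members' values was not tested either. Since the libraries hold RNA of whole cultures, fewer cells that express a gene and less of its RNA per cell cannot be told apart.

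Metformin divided these genes. The tankyrases, PARP8, PARP6, PARP3 and PARP4 rose, and PARP1, PARP2, PARP12 and PARP10 fell. FK866 alone moved fewer of them: TNKS and TNKS2 rose, and PARP3 and PARP12 fell. These FK866 calls depended on single libraries and on the treatment of GC content. Adding FK866 to metformin moved none past the test. A gene passed the test with an adjusted p-value under 0.05 (limma on log2(normalized count + 1), Benjamini-Hochberg adjustment over all 15376 genes tested), and was called a DEG with a fold change over 1.5 as well. For Met against DMSO, 6 of the 10 members rose and 4 fell. Among all genes tested, 24.9% rose and 25.9% fell, and 50.9% changed in either direction. TNKS, PARP8 and PARP10 were DEGs, beside 12.8% of all genes that were DEGs upward and 10.2% downward. In all 10 members the Met libraries did not overlap the DMSO libraries, as in 56.9% of all genes tested. The members' median log2 fold change was 0.32, and their values ran from −0.80 to 0.74, beside a median of 0.01 over all genes tested.

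**Figure D1:**
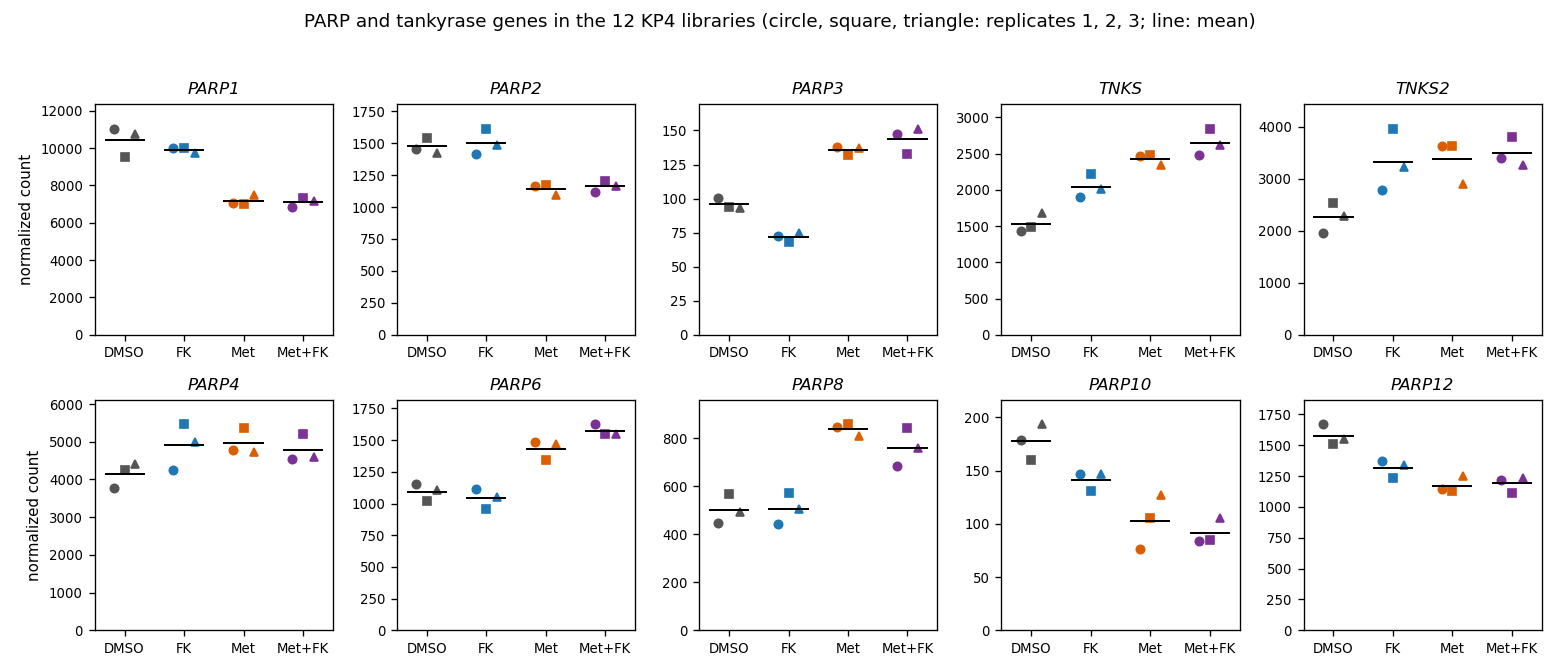
Normalized count (vertical axes, from 0) of each of the 10 genes in the 12 KP4 libraries by treatment, with replicate 1 as circle, 2 as square and 3 as triangle and the mean as a line. The Met libraries lie below all DMSO libraries for PARP1, PARP2, PARP10 and PARP12 and above them for the other 6 genes.

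Levels can be compared between genes only per length, so each value was divided by the length of the Ensembl canonical transcript. On these lengths PARP1 was the highest of the 10 in every treatment. It had 2625 ± 200 normalized counts per kb in DMSO, 2493 ± 44.8 in FK, 1805 ± 67.5 in Met and 1787 ± 63.6 in Met+FK (SD, n = 3). In DMSO the order below it was PARP2 (807 ± 34.1 per kb), PARP4 (763 ± 60.2), PARP12 (521 ± 27.7), PARP6 (392 ± 24.8), TNKS2 (362 ± 45.9), TNKS (159 ± 13.6), PARP8 (67.3 ± 8.17), PARP10 (50.6 ± 4.83) and PARP3 (40.9 ± 1.75), each SD over 3 libraries. The ranges of PARP2 and PARP4 overlapped, as did those of PARP6 and TNKS2, and the other neighbours in this order did not overlap. In Met the order was PARP1, PARP4, PARP2, TNKS2, PARP6, PARP12, TNKS, PARP8, PARP3 and PARP10, and TNKS2 (542 ± 68.1 per kb) and PARP6 (513 ± 28.7 per kb) overlapped. The order in FK was PARP1, PARP4, PARP2, TNKS2, PARP12, PARP6, TNKS, PARP8, PARP10 and PARP3, with overlap of PARP4 and PARP2 and of TNKS2 and PARP12. In Met+FK it was PARP1, PARP4, PARP2, PARP6, TNKS2, PARP12, TNKS, PARP8, PARP3 and PARP10, where PARP6 and TNKS2 overlapped.

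**Figure D2:**
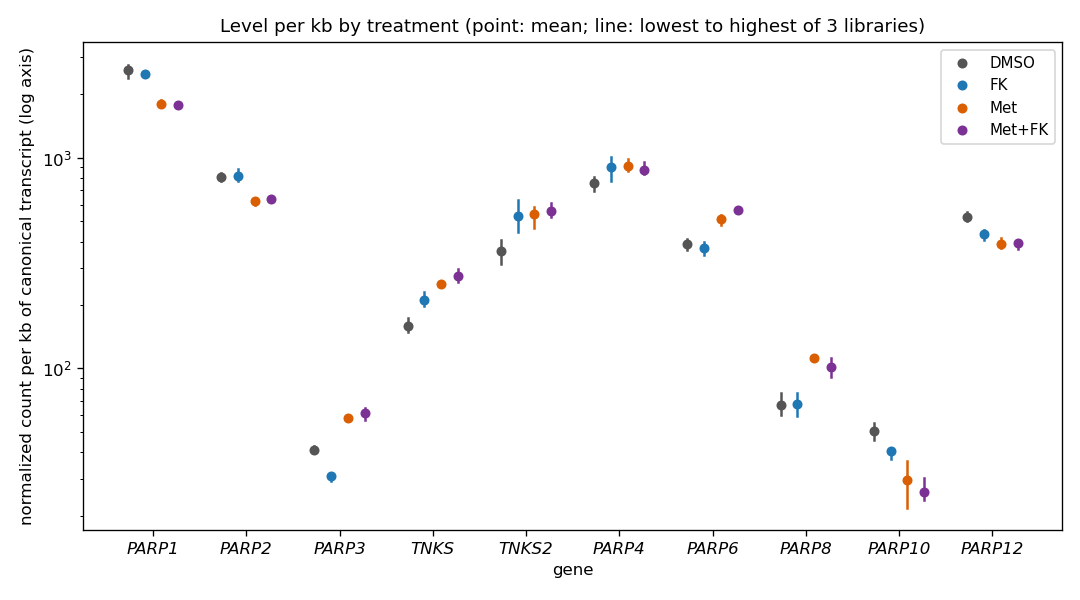
Normalized count per kb of canonical transcript (log axis) of the 10 genes by treatment, with the mean as a point and the lowest to highest of 3 libraries as a line. PARP1 is the highest gene in every treatment, and PARP10 and PARP3 are at the bottom.

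PARP1 made up 45.3% ± 2.39 (SD, n = 3) of the summed per-kb level of the 10 genes in DMSO, 42.2% ± 1.74 in FK, 34.5% ± 1.52 in Met and 33.8% ± 0.542 in Met+FK. TNKS2 made up 6.27% ± 0.932 in DMSO, 8.97% ± 1.23 in FK, 10.3% ± 1.24 in Met and 10.6% ± 0.582 in Met+FK. With the length of all exons of a gene in place of the canonical transcript, the share of PARP1 was 21.6% in DMSO and 14.2% in Met, and its rank was lost. On all exons PARP4 was highest in every treatment, with 686 ± 54.2 normalized counts per kb in DMSO beside 567 ± 43.2 for PARP1 (SD, n = 3). TNKS2 lay above PARP1 on that scale in Met, with 542 ± 68.1 beside 390.3 ± 14.6, and in Met+FK, with 559 ± 45.4 beside 386 ± 13.8 (SD, n = 3). The order of the levels and the size of the shares thus depend on the length used. The summed per-kb level also turned: it was 5787 ± 154 in DMSO and 5238 ± 45.2 in Met on canonical lengths, and 2626 ± 62.7 in DMSO and 2751 ± 95.4 in Met on all exons (SD, n = 3).

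PARP1 (chromosome 1, 226360691 to 226408093 on the minus strand of hg38) had 11032, 9537 and 10753 normalized counts in the DMSO libraries, 10026, 10015 and 9712 in FK, 7031, 7021 and 7490 in Met, and 6826, 7315 and 7182 in Met+FK. All 6 libraries with metformin lay below all 6 libraries without it. Metformin lowered PARP1 1.45-fold (log2 fold change −0.54 ± 0.07, SE, adjusted p = 1.79e-05), and Met+FK lowered it 1.47-fold (−0.55 ± 0.07, adjusted p = 1.1e-05), both below the fold limit for a DEG. For FK against DMSO the log2 fold change of PARP1 was −0.07, with a 95% interval from −0.22 to 0.07 and an adjusted p of 0.438. Processed pseudogenes of PARP1 are annotated, and how reads that also align to them were counted is not given in the sources used here.

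PARP2, which shares with PARP1 the response to DNA breaks, had 1458, 1544 and 1423 normalized counts in DMSO, 1417, 1613 and 1483 in FK, 1165, 1172 and 1097 in Met, and 1122, 1207 and 1162 in Met+FK. Again every library with metformin lay below every library without it. The log2 fold change was −0.37 ± 0.08 (SE, adjusted p = 0.0012) for Met against DMSO, −0.34 ± 0.08 (adjusted p = 0.00183) for Met+FK against DMSO, and 0.03 ± 0.08 (adjusted p = 0.802) for FK against DMSO. With the libraries scaled to the same total, the value for Met was −0.24 (adjusted p = 0.0178).

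PARP2 lies on chromosome 14, from 20343582 to 20357905 on the plus strand, and shares 71 exon bases with ENSG00000259001, a noncoding RNA on the opposite strand with 85126 to 140513 normalized counts per library. The strand setting of the counting is not given, so reads of both genes may not be fully told apart. The neighbour's log2 fold change for Met against DMSO was −0.25 ± 0.13 (SE, adjusted p = 0.126). The sequence around the start of PARP2 is printed because its expression fell with metformin and it holds a motif that no other member with a window holds. It is the RefSeq window of GRCh38.p14, chr14:20343385-20343664 on the plus strand, from 250 bases before the start to 30 after, 5′ to 3′, with a match to the cyclic AMP response element TGACGTCA in capitals.
PARP2: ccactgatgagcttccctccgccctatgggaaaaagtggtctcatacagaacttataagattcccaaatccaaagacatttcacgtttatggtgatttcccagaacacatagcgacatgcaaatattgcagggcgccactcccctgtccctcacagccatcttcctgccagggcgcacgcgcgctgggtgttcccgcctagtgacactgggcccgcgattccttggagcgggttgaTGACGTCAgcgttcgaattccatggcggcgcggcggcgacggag
This motif, read on both strands, stands in 1.85% of all 35116 windows of the same length, and PARP2 was the only member with a match among the 7 that have a window. A match is a string of letters and no evidence of binding.

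PARP3, also a DNA-break-dependent PARP, moved against PARP1 and PARP2. It had 100.4, 93.6 and 93.1 normalized counts in DMSO, 72.7, 68.1 and 74.6 in FK, 138, 132 and 137 in Met, and 147, 133 and 151 in Met+FK. The treatments formed 3 levels without overlap: FK lowest, DMSO between, and both groups with metformin highest. Metformin raised PARP3 1.41-fold (log2 fold change 0.50 ± 0.12, SE, adjusted p = 0.00278) and Met+FK 1.5-fold (0.58 ± 0.12, adjusted p = 0.000886). Over the alternative fits described below, these log2 fold changes ran from 0.46 to 0.69 and from 0.54 to 0.74, on both sides of the fold limit of a DEG. With FK866 PARP3 fell by 0.41 ± 0.12 (SE) on the log2 scale, adjusted p = 0.0328. Set against FK, PARP3 was higher by 0.91 ± 0.12 (SE, log2, adjusted p = 3.32e-05) in Met and by 0.99 ± 0.12 (adjusted p = 1.11e-05) in Met+FK. PARP3 is on chromosome 3, from 51942345 to 51948867 on the plus strand.

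TNKS, tankyrase 1, had 1431, 1481 and 1678 normalized counts in DMSO, 1902, 2213 and 2017 in FK, 2462, 2475 and 2346 in Met, and 2475, 2841 and 2615 in Met+FK. DMSO was lowest, FK was between, and both groups with metformin were highest, with no overlap between these 3 levels. TNKS was a DEG for Met against DMSO (1.59-fold, log2 fold change 0.67 ± 0.09, SE, adjusted p = 1.87e-05) and for Met+FK against DMSO (1.73-fold, 0.79 ± 0.09, adjusted p = 2.96e-06), where it had the smallest adjusted p of the 10 genes. With FK866 the log2 fold change of TNKS was 0.42 ± 0.09 (SE, adjusted p = 0.0136).

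TNKS2, tankyrase 2, had 1963, 2535 and 2281 normalized counts in DMSO, 2790, 3958 and 3218 in FK, 3624, 3628 and 2889 in Met, and 3395, 3806 and 3262 in Met+FK. The DMSO libraries lay below all 9 others, and the 3 treated groups overlapped. The log2 fold change of TNKS2 was 0.58 ± 0.13 (SE, adjusted p = 0.00178) for Met, just under the fold limit of a DEG, 0.55 ± 0.13 (adjusted p = 0.0209) for FK, and 0.63 ± 0.13 (adjusted p = 0.000896) for Met+FK, a DEG at 1.55-fold, each against DMSO. TNKS2 is on chromosome 10, from 91798426 to 91865475 on the plus strand.

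Both tankyrases rose less under metformin when the values of each library were first freed of their trend with GC content and length. The canonical transcripts of TNKS2 and TNKS are 41.5% and 43.3% GC, below the median of 48.5% of the genes tested. With the trend removed, the log2 fold changes for Met against DMSO were 0.37 for TNKS (adjusted p = 3.82e-05) and 0.30 for TNKS2 (adjusted p = 0.000676), and those for Met+FK against DMSO were 0.52 (adjusted p = 6.28e-07) and 0.40 (adjusted p = 4.56e-05). All 4 values stayed past the test, but all lay under 0.585, the fold limit of a DEG on the log2 scale. PARP8, at 36.9% GC the lowest of the members, moved likewise, from 0.74 to 0.36 for Met against DMSO (adjusted p = 0.0023) and from 0.60 to 0.28 for Met+FK against DMSO (adjusted p = 0.012). Neither corrected value of PARP8 reached that limit.

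PARP8, a mono-ADP-ribosyltransferase, had the largest rise under metformin of the 10 genes on the deposited values. It had 448, 568 and 492 normalized counts in DMSO, 445, 572 and 505 in FK, 846, 858 and 808 in Met, and 683, 841 and 760 in Met+FK. DMSO and FK covered almost the same range, and every library with metformin lay above both. PARP8 was a DEG for Met against DMSO (1.67-fold, log2 fold change 0.74 ± 0.12, SE, adjusted p = 0.000103) and for Met+FK against DMSO (1.51-fold, 0.60 ± 0.12, adjusted p = 0.000535). PARP8 is on chromosome 5, from 50665899 to 50846519 on the plus strand, and shares 161 exon bases with a noncoding RNA on the opposite strand that was not analysed here.

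PARP6, of the same kind, had 1153, 1017 and 1105 normalized counts in DMSO, 1111, 959 and 1055 in FK, 1487, 1340 and 1467 in Met, and 1624, 1549 and 1549 in Met+FK. The groups without metformin overlapped, Met lay above them, and Met+FK lay above Met. The log2 fold change was 0.39 ± 0.08 (SE, adjusted p = 0.00124) for Met against DMSO and 0.53 ± 0.08 (adjusted p = 9.71e-05) for Met+FK against DMSO. PARP6, on chromosome 15 from 72241181 to 72272999 on the minus strand, shares 356 exon bases on the same strand with the protein-coding ENSG00000273025, which was not analysed here, so its counts are uncertain to that extent.

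The windows of TNKS2 and PARP6 are printed because both genes rose with metformin and both hold the E-box CACGTG, shown in capitals. They are RefSeq windows of GRCh38.p14 from 250 bases before the start to 30 after, at chr10:91798176-91798455 on the plus strand for TNKS2 and chr15:72272525-72272804 on the minus strand for PARP6, each written 5′ to 3′ on the strand of its gene.
TNKS2: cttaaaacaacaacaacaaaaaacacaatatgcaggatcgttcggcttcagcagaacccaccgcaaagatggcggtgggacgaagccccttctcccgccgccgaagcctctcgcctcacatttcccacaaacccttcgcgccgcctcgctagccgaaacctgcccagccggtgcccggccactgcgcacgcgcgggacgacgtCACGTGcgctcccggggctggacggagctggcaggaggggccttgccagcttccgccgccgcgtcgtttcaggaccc
PARP6: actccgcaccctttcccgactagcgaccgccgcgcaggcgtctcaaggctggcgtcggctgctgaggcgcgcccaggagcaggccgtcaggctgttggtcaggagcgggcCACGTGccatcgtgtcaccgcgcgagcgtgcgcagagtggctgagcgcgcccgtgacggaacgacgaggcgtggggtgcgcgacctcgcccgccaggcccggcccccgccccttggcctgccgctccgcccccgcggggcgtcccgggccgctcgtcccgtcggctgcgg
The E-box reads the same on both strands and stands in 6.94% of all windows. The other 5 members with a window do not hold these letters in it, and PARP3 and PARP8 among them also rose with metformin. Here too a match is no evidence of binding.

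PARP4, the PARP of the vault particle, had 3776, 4264 and 4398 normalized counts in DMSO, 4240, 5462 and 5003 in FK, 4778, 5377 and 4719 in Met, and 4553, 5202 and 4605 in Met+FK. The Met and Met+FK libraries lay above DMSO, and FK overlapped all 3 other groups. The log2 fold change for Met against DMSO was 0.26 ± 0.10 (SE, adjusted p = 0.0383), and this call was lost with the GC and length trend removed (0.08, adjusted p = 0.29), with all genes above 0 tested (adjusted p = 0.0607), without DMSO replicate 1 (adjusted p = 0.163), without Met replicate 1 (adjusted p = 0.0593) and without Met replicate 2 (adjusted p = 0.154). For Met+FK against DMSO it was 0.21 ± 0.10 (adjusted p = 0.0878). PARP4 is on chromosome 13, from 24420931 to 24512778 on the minus strand. Unprocessed pseudogenes of PARP4 are annotated, and the counting of reads shared with them is likewise not given.

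PARP10, another mono-ADP-ribosyltransferase, had 179, 160 and 193 normalized counts in DMSO, 146, 131 and 147 in FK, 76.3, 106 and 127 in Met, and 83.6, 84.8 and 105 in Met+FK. DMSO was highest, FK lay below it without overlap, and both groups with metformin lay below FK. PARP10 fell by the largest factor of the 10 genes, 1.75-fold in Met (log2 fold change −0.80 ± 0.17, SE, adjusted p = 0.00124) and 1.94-fold in Met+FK (−0.95 ± 0.17, adjusted p = 0.000303), both DEGs against DMSO. The Met libraries spread widely: without Met replicate 1 the log2 fold change was −0.61 (adjusted p = 0.00722). The transcript of PARP10 is the most GC-rich of the members (66.8%), and with the GC and length trend removed the value for Met was −0.66 (adjusted p = 0.000517). PARP10 shares 324 exon bases with GRINA on the opposite strand, whose log2 fold change for Met against DMSO was −0.05 ± 0.10 (SE, adjusted p = 0.703).

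PARP12, a PARP known as interferon-inducible, had 1669, 1507 and 1549 normalized counts in DMSO, 1372, 1237 and 1343 in FK, 1141, 1126 and 1251 in Met, and 1219, 1114 and 1237 in Met+FK. All treated libraries lay below DMSO. The log2 fold change was −0.43 ± 0.08 (SE, adjusted p = 0.000568) for Met, −0.26 ± 0.08 (adjusted p = 0.0404) for FK and −0.40 ± 0.08 (adjusted p = 0.000772) for Met+FK, each against DMSO. PARP12 is on chromosome 7, from 140023744 to 140063721 on the minus strand. The window of PARP12 is shown for its match to the interferon-stimulated response element, here 2 stretches of GAAA with any pair of bases between them, which lies on the minus strand relative to the gene and ends at the base before the start. It is the RefSeq window of GRCh38.p14 at chr7:140062922-140063201 on the minus strand, from 250 bases before the start to 30 after, with the match in capitals as read on the strand of the gene.
PARP12: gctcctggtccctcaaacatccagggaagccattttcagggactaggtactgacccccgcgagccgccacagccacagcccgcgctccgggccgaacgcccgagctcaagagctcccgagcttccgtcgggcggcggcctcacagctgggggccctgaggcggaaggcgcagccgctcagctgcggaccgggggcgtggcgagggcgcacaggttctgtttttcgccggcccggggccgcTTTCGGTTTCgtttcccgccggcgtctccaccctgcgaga
This motif, read on both strands, stands in 3.39% of all windows, and PARP12 was the only match among the 7 members with a window. PARP4, PARP10 and TNKS have no window and were not searched.

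**Figure D3:**
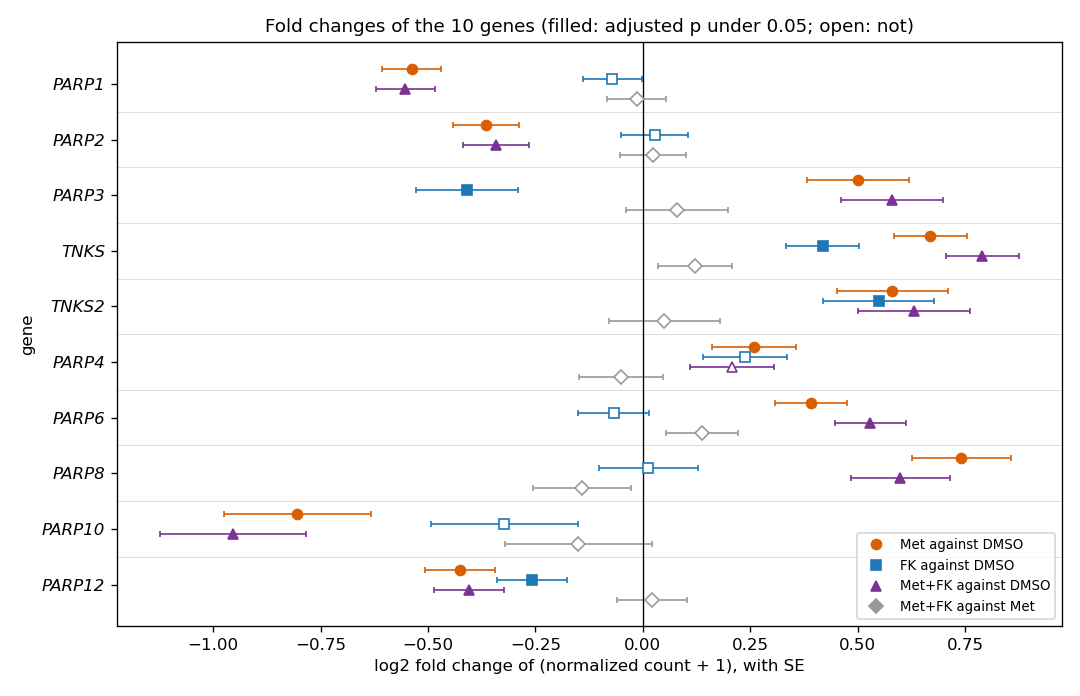
Log2 fold change of (normalized count + 1) with its SE for the 10 genes in 4 comparisons, filled where the adjusted p was under 0.05. The lowest value is that of PARP10 in Met+FK against DMSO (−0.95) and the highest that of TNKS in the same comparison (0.79), and no value of Met+FK against Met is filled.

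The comparison of FK with DMSO asks what NAMPT inhibition alone did. Of the 10 members, TNKS and TNKS2 rose, PARP3 and PARP12 fell, and none was a DEG. Among all genes tested, 21.1% changed, 11.3% up and 9.84% down, and 2.73% were DEGs upward and 0.754% downward. The libraries did not overlap in 5 members, the fifth being PARP10, as in 38.8% of all genes tested. The members' median log2 fold change was −0.03, beside −0.02 over all genes. For PARP10 the value was −0.32 ± 0.17 (SE, adjusted p = 0.162), and for PARP4 0.24 ± 0.10 (adjusted p = 0.0843). PARP6 (−0.07) and PARP8 (0.01) had 95% intervals from −0.25 to 0.11 and from −0.23 to 0.26.

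These calls depended on single libraries and on the treatment of GC content. Without DMSO replicate 1, and without FK replicate 2, no member passed the test, and without DMSO replicate 3 only TNKS did. With only the 6 DMSO and FK libraries in the fit, the adjusted p was 0.0581 for TNKS, 0.0609 for TNKS2, 0.0877 for PARP3 and 0.0902 for PARP12, so none passed. Relative to each gene's mean over the 12 libraries, the log2 value of a library changed with GC content. Per 10 points of GC this relative change was 0.196, 0.0429 and 0.18 in the DMSO libraries. In the FK libraries it was 0.00266, −0.245 and −0.0247, with no overlap between the groups. With that trend removed, TNKS2 still passed (log2 fold change 0.25, adjusted p = 0.0232), while TNKS (0.15, adjusted p = 0.108), PARP12 (−0.13, adjusted p = 0.13) and PARP3 (−0.20, adjusted p = 0.286) did not, and PARP8 turned from 0.01 to −0.44 (adjusted p = 0.00697).

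Same-numbered DMSO and FK libraries deviated together from their group means, so the replicate number was also fitted as a block. With this block PARP4 joined the 4 members past the test (adjusted p = 0.00865), and with blocks fitted separately for the libraries without and with metformin, PARP10 did as well (adjusted p = 0.0455). Of all 15376 genes, 6854 passed with this block and 7775 with separate blocks. With the block and the GC and length trend removed together, TNKS (adjusted p = 0.0487), TNKS2 (0.00455) and, downward, PARP8 (0.000841) passed, beside 2948 of 15324 genes.

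**Figure D4:**
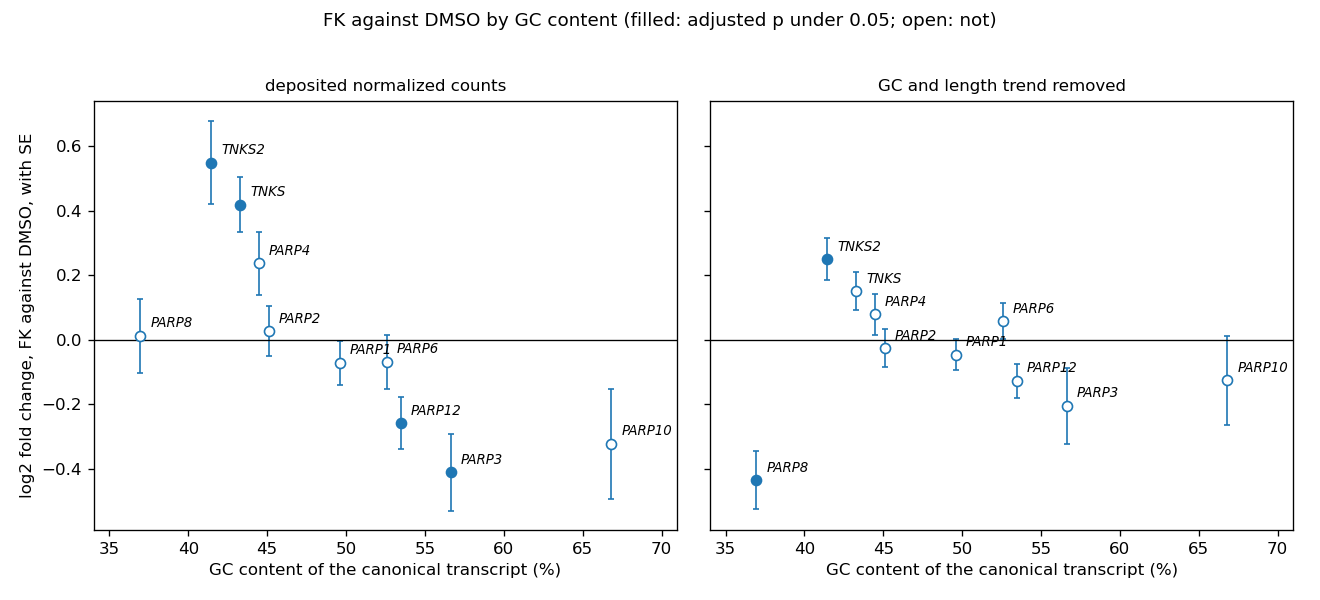
Log2 fold change of FK against DMSO with its SE (vertical axes) against the GC content of the canonical transcript in percent for the 10 genes, on the deposited values (left) and with the GC and length trend removed (right), filled where the adjusted p was under 0.05. TNKS2 is filled in both panels, TNKS, PARP3 and PARP12 only on the left, and PARP8 only on the right.

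For Met+FK against DMSO, 5 members rose (PARP3, PARP6, PARP8, TNKS and TNKS2) and 4 fell (PARP1, PARP2, PARP10 and PARP12), beside 26.1% of all genes up and 26.1% down, 52.2% together. Of the 4 DEGs, PARP8, TNKS and TNKS2 were higher and PARP10 was lower, beside 13.7% of all genes as DEGs upward and 11.3% downward. All 10 members did not overlap between these groups, as in 60.9% of all genes. The members' median log2 fold change was 0.37, beside 0.01 over all genes. This comparison shares its DMSO libraries with the other comparisons against DMSO.

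Adding FK866 to metformin, the comparison of Met+FK with Met, changed none of the 10 members past the test of limma, with or without the replicate block, or of edgeR's quasi-likelihood test or DESeq2, both run without the block. None of the members had an unadjusted p under 0.05 in the main test, where 1051 of all 15376 genes did and 0.0976% passed after adjustment, 0.0911% up and 0.0065% down. PARP6 and TNKS did not overlap between the groups, as in 13.4% of all genes. The 95% intervals of the log2 fold changes bound what could have gone unseen. That of PARP10 ran from −0.51 to 0.21, that of TNKS2 from −0.23 to 0.33, and that of PARP8 from −0.39 to 0.10. That of PARP1 ran from −0.16 to 0.13, that of PARP6 from −0.04 to 0.32 and that of TNKS from −0.06 to 0.30. A change of PARP1 over 1.5-fold lies outside its interval, and the same holds for the other 9 members, since no bound reaches 0.585 on the log2 scale.

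Adding metformin to FK866 (Met+FK against FK) raised PARP3, PARP6, PARP8 and TNKS and lowered PARP1, PARP2 and PARP10, beside 20.5% of all genes up and 21.7% down, 42.1% together. The libraries of these 7 did not overlap between the groups, as in 50.9% of all genes. The log2 fold changes were 0.60 ± 0.08 (SE, adjusted p = 4.5e-05) for PARP6, 0.59 ± 0.12 (adjusted p = 0.000846) for PARP8 and 0.37 ± 0.09 (adjusted p = 0.00277) for TNKS. They were −0.48 ± 0.07 (SE, adjusted p = 5.54e-05) for PARP1, −0.37 ± 0.08 (adjusted p = 0.00139) for PARP2 and −0.63 ± 0.17 (adjusted p = 0.00794) for PARP10. PARP3, PARP6, PARP8 and PARP10 were DEGs, beside 9.27% of all genes upward and 9.29% downward. TNKS2 (0.08, adjusted p = 0.642), PARP4 (−0.03, adjusted p = 0.835) and PARP12 (−0.15, adjusted p = 0.163) did not pass.

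With the single drugs set against each other (Met against FK, which shares its FK libraries with the comparison above), PARP3, PARP6, PARP8 and TNKS were higher and PARP1, PARP2 and PARP10 lower, beside 17.2% of all genes up and 19.5% down, 36.7% together. Again these 7 did not overlap between the groups, as in 43.9% of all genes. PARP8 (log2 fold change 0.73 ± 0.12, SE, adjusted p = 0.000181) and PARP3 were DEGs, beside 8.08% of all genes upward and 7.03% downward. TNKS (0.25, adjusted p = 0.032) and PARP10 (−0.48, adjusted p = 0.038) were close to the threshold and lost it without FK replicate 1, FK replicate 3, Met replicate 1 or Met replicate 2 (adjusted p from 0.0595 to 0.195). TNKS2 was at 0.03 with a 95% interval from −0.24 to 0.31. PARP12, at −0.17 (adjusted p = 0.122), passed with the replicate block (adjusted p = 0.0411) and with the GC and length trend removed (adjusted p = 0.00754).

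The interaction subtracts the FK866 effect in vehicle from the FK866 effect in metformin and so tests whether FK866 acted differently in cells that also received metformin. No member passed, beside 0.0585% of all genes, 0.0065% up and 0.052% down, while 4695 of the 15376 genes had an unadjusted p under 0.05. The members with an unadjusted p under 0.05 had values of 0.49 ± 0.17 (SE, log2, adjusted p = 0.112) for PARP3, −0.50 ± 0.18 (adjusted p = 0.116) for TNKS2, −0.30 ± 0.12 (adjusted p = 0.127) for TNKS and 0.28 ± 0.12 (adjusted p = 0.131) for PARP12, and PARP4 was at −0.29 ± 0.14 (adjusted p = 0.172). With the replicate block, PARP3 (adjusted p = 0.0356), PARP12 (0.0306), PARP4 (0.0276), TNKS (0.0351) and TNKS2 (0.0125) passed, and with separate blocks for the libraries without and with metformin PARP6 (0.0471) passed as well. Such calls were common in these fits: of all 15376 genes, 4914 passed with the block and 6384 with separate blocks. With the GC and length trend removed no member passed, and the value of TNKS2 was −0.16.

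Other genes of the PARP family, which were not among the 10, were described alongside. TIPARP, a mono-ADP-ribosyltransferase induced by the aryl hydrocarbon receptor, had 3806, 4991 and 4744 normalized counts in DMSO, 8091, 10476 and 9211 in FK, 5844, 6687 and 6095 in Met, and 9417, 10928 and 8707 in Met+FK. Both groups with FK866 lay above both groups without it. TIPARP rose by 1.04 ± 0.12 (SE, log2, adjusted p = 0.000216) in FK and by 0.47 ± 0.12 (adjusted p = 0.00366) in Met against DMSO, and both calls held in every alternative and with each library left out. With the GC and length trend removed the value for FK was 0.74 (adjusted p = 6.07e-06) and that for Met was 0.22 (adjusted p = 0.0176). For Met+FK against Met the log2 fold change of TIPARP was 0.64 with an adjusted p of 0.0509, just short of the threshold, and 0.68 (adjusted p = 8.19e-05) with the trend removed. In that comparison TIPARP passed in 6 of 13 alternatives and in 0 of 6 fits with a library left out (adjusted p up to 0.292).

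**Figure D5:**
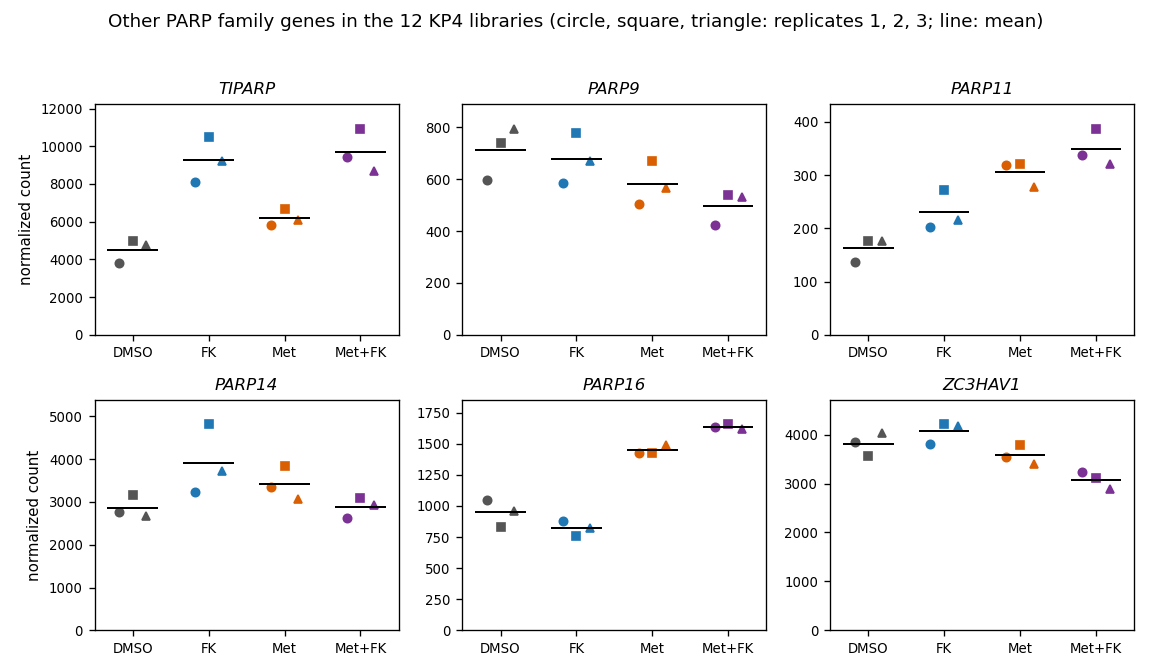
Normalized count (vertical axes, from 0) of 6 other PARP family genes in the 12 KP4 libraries by treatment, with replicate 1 as circle, 2 as square and 3 as triangle and the mean as a line. TIPARP is at 8091 or more in the 6 libraries with FK866 and at 6687 or less in the other 6, and PARP16 is at 1421 or more in the 6 libraries with metformin and at 1049 or less in the other 6.

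Of the 6 other family genes tested, 3 rose and none fell for Met against DMSO, beside 24.9% of all genes up and 25.9% down, and the list's median log2 fold change was 0.36. After removal of the GC and length trend 3 rose and 2 fell, beside 3859 of 15324 genes up and 4935 down in that fit. PARP16, an ADP-ribosyltransferase of the endoplasmic reticulum, rose by 0.62 ± 0.09 (SE, log2, adjusted p = 6.07e-05), and PARP11 by 0.91 ± 0.14 (adjusted p = 8.54e-05). PARP9 (−0.29, adjusted p = 0.101), PARP14 (0.25, adjusted p = 0.113) and ZC3HAV1 (−0.09, adjusted p = 0.334) did not pass. The 2 that fell with the trend removed were ZC3HAV1 (−0.30, adjusted p = 0.000122) and PARP9 (−0.46, adjusted p = 0.00257). PARP15 had under 10 normalized counts and was not tested. With FK866, PARP11 (0.49, adjusted p = 0.03) and PARP14 (0.44, adjusted p = 0.0336) passed beside TIPARP, and both lost the call with the GC and length trend removed (adjusted p = 0.394 and 0.134). For Met+FK against DMSO, 3 of the 6 genes tested rose and 2 fell, beside 26.1% of all genes up and 26.1% down. TIPARP rose by 1.10 (log2, adjusted p = 2.18e-06), PARP11 by 1.10 (adjusted p = 1.28e-05) and PARP16 by 0.79 (adjusted p = 4.8e-06). PARP9 fell by 0.51 ± 0.14 (SE, log2, adjusted p = 0.00792) and ZC3HAV1, the antiviral zinc finger protein, fell by 0.31 ± 0.08 (adjusted p = 0.00349). With the GC and length trend removed 3 rose and 3 fell, beside 4246 of 15324 genes up and 5008 down.

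Among genes that remove or read ADP-ribose, 4 of 13 tested rose and 2 fell for Met against DMSO, with a median of 0.12, beside 24.9% of all genes up and 25.9% down. The counts were 5 up and 4 down with the GC and length trend removed, beside 3859 of 15324 genes up and 4935 down in that fit. The rises included APLF, a reader at DNA breaks (log2 fold change 0.93 ± 0.17, SE, adjusted p = 0.000375), NUDT16 (0.44 ± 0.08, adjusted p = 0.00052) and OARD1 (0.51 ± 0.12, adjusted p = 0.00236). NUDT5, which hydrolyses free ADP-ribose, fell by 0.44 ± 0.08 (SE, log2, adjusted p = 0.000258), and ADPRHL2, which removes ADP-ribose from serine, fell by 0.43 ± 0.12 (adjusted p = 0.00771). Under FK866 only OARD1 passed (0.35, adjusted p = 0.0495), and not with the trend removed (0.06, adjusted p = 0.685).

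Of 9 partners of PARP1 in single-strand break repair, 6 fell and 1 rose with metformin, beside 25.9% of all genes down and 24.9% up, and the median log2 fold change was −0.42. PCNA, the replication clamp, had 5142, 5348 and 5326 normalized counts in DMSO and 2215, 2359 and 2076 in Met. FEN1, the flap endonuclease, had 6315, 5408 and 5799 in DMSO and 2444, 2370 and 2422 in Met. Their log2 fold changes were −1.25 ± 0.08 (SE, adjusted p = 1.68e-08) and −1.27 ± 0.08 (adjusted p = 2.04e-08), and that of TDP1 was −0.54 ± 0.08 (adjusted p = 3.68e-05). POLB rose by 0.33 ± 0.11 (SE, log2, adjusted p = 0.0173). PCNA and FEN1 also serve DNA replication. In FK only FEN1 passed (−0.23, adjusted p = 0.0477), and not with the trend removed (adjusted p = 0.291).

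Substrates, ligases and deubiquitinases that work with tankyrases moved in both directions: 5 of 14 rose and 6 fell for Met against DMSO, with a median of −0.03, beside 24.9% of all genes up and 25.9% down. USP25, a deubiquitinase that binds tankyrases, rose from 884, 1093 and 863 normalized counts in DMSO to 2262, 2198 and 1749 in Met (log2 fold change 1.13 ± 0.15, SE, adjusted p = 2.05e-05). RNF146, the ligase that recognises the chains, rose by 0.65 ± 0.12 (SE, log2, adjusted p = 0.000467), and VCPIP1 by 0.65 ± 0.14 (adjusted p = 0.00126). AXIN2, a Wnt target and tankyrase substrate, fell by 0.91 ± 0.12 (adjusted p = 1.94e-05), NUMA1 by 0.55 ± 0.10 (adjusted p = 0.000306) and BABAM1 by 0.50 ± 0.08 (adjusted p = 0.00021). AXIN1, the other axin of the list, went the other way and rose by 0.38 ± 0.08 (SE, log2, adjusted p = 0.00179). Of the same list, 3 rose with FK866 (RNF146, USP25 and VCPIP1) and 3 fell (AMOTL2, BABAM1 and AXIN2), beside 11.3% of all genes up and 9.84% down. With the GC and length trend removed the calls of USP25 (adjusted p = 0.0564), VCPIP1 (0.784), BABAM1 (0.499) and AXIN2 (0.147) were lost. AMOTL2 had the largest change of the 6. It fell by 0.61 ± 0.10 (SE, log2, adjusted p = 0.00449) and kept its call in every alternative and with each library left out.

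Of 6 genes tied to parthanatos, the cell death that follows overactive PARP1, 1 rose and 3 fell with metformin, beside 24.9% of all genes up and 25.9% down. RNF146, also in the tankyrase list, was the riser. AIFM1, whose protein carries the death signal to the nucleus, fell by 0.29 ± 0.07 (SE, log2, adjusted p = 0.00188), MIF by 0.46 ± 0.11 (adjusted p = 0.00269) and HK1 by 0.25 ± 0.08 (adjusted p = 0.0205). The call of HK1 held in 2 of 6 fits with a library left out. With the GC and length trend removed these falls were −0.25 for AIFM1 (adjusted p = 0.00106), −0.19 for MIF (adjusted p = 0.0244) and −0.15 for HK1 (adjusted p = 0.0134). In FK, RNF146 rose (0.52, adjusted p = 0.0209) and OGG1 fell by 0.34 (log2, adjusted p = 0.0278). With the GC and length trend removed RNF146 was at 0.27 (adjusted p = 0.0438) and OGG1 at −0.09 (adjusted p = 0.315), its call lost.

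Interferon-stimulated genes were listed because PARP10 and PARP12 respond to interferon. With metformin 5 of 17 tested fell and 2 rose, near the 25.9% of all genes that fell and under the 24.9% that rose, and the median log2 fold change was −0.11. OAS3 fell by 0.97 ± 0.09 (SE, log2, adjusted p = 1.06e-06), IFIT1 by 0.95 ± 0.12 (adjusted p = 1.77e-05) and ISG15 by 0.76 ± 0.14 (adjusted p = 0.000361), while IFIT2 rose by 0.64 ± 0.15 (adjusted p = 0.00257) and IFIH1 by 0.49 ± 0.15 (adjusted p = 0.0127). Only IFIT3 passed with FK866 (0.35, adjusted p = 0.0434), and not with the trend removed (0.26, adjusted p = 0.0964).

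Among 10 other enzymes that use NAD, 3 rose and none fell with metformin, beside 24.9% of all genes up and 25.9% down. With the GC and length trend removed 5 rose and 1 fell, beside 3859 of 15324 genes up and 4935 down. The 3 that rose without this correction were SIRT5, a mitochondrial and cytosolic deacylase (log2 fold change 0.62 ± 0.09, SE, adjusted p = 4.97e-05), SIRT1, a nuclear deacetylase (0.38 ± 0.12, adjusted p = 0.0173), and SARM1, an NAD hydrolase (0.42 ± 0.14, adjusted p = 0.0215). With the GC and length trend removed the call of SIRT1 was lost (0.12, adjusted p = 0.0776). SIRT1 also rose with FK866 (0.60 ± 0.12, SE, log2, adjusted p = 0.0136). Of 7 NAD synthesis genes tested, 4 rose and 2 fell with metformin, beside 24.9% of all genes up and 25.9% down. NMNAT2 rose by 1.13 ± 0.15 (SE, log2, adjusted p = 3.33e-05), NMNAT1 by 0.40 ± 0.09 (adjusted p = 0.00177) and NAMPT, the target of FK866, by 0.69 ± 0.16 (adjusted p = 0.0027), and NADK, which makes NADP, fell by 0.30 ± 0.08 (adjusted p = 0.00507). NAMPT was higher in FK than in DMSO by 0.56 ± 0.16 (SE, log2, adjusted p = 0.0333), and by 0.12 (adjusted p = 0.216) with the trend removed. Of the genes named from these lists for FK against DMSO, only TIPARP and AMOTL2 kept their calls whichever library was left out. In the fit with neither block nor correction, no gene of these lists passed for Met+FK against Met or for the interaction. After removal of the GC and length trend, TIPARP, FEN1 (−0.40, adjusted p = 0.00046) and PCNA (−0.31, adjusted p = 0.0312) passed for Met+FK against Met, and AMOTL2 (0.40, adjusted p = 0.0439) for the interaction. Over the alternatives, FEN1 passed for Met+FK against Met in 6 of 13 and PCNA in 5 of 13, and AMOTL2 passed for the interaction in 5 of 12 and PARP14 in 4 of 12.

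The genes whose log2 values ran most like those of PARP1 over the 12 libraries, among the 11511 genes that averaged 100 normalized counts or more, were NR2F1 (Pearson r = 0.994), GDF11 (0.989), SRRM1 (0.988), DNMT1 (0.988) and GRK5 (0.986). For TNKS they were AFF3 (0.984), SH3KBP1 (0.983), SCARB2 (0.98), PARP11 (0.979) and NCOA1 (0.978). In all, 399 genes had an r over 0.95 with PARP1 and 94 with TNKS. These values are a description: the libraries share 4 treatments, and any gene with the same steps between treatments scores high.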

How the data were processed

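Upstream, the authors used cutadapt 3.7 for trimming and RNA STAR 2.7.8 for alignment to hg38, counted read pairs with both ends mapped using featureCounts 2.0.1 and divided the counts by DESeq2 size factors. The deposited values are therefore a signal without negative values, namely normalized counts per gene and library, and they were whole multiples of 1 read pair within 0.01. The annotation and strand setting are not given in the sources used here. Positions are those of the deposited table, 1-based.

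Genes averaging 10 or more (15376) were tested with limma-trend (limma 3.58.1, R 4.3.3) on log2(normalized count + 1), in a single model of the 12 libraries with 1 mean per treatment. Each of 7 contrasts was adjusted with the Benjamini-Hochberg method. Fold changes on this scale understate those of low genes. The fit was also run on simulated counts, and the outcome of that run is not given here.

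The members and gene lists were chosen with earlier results of these data known. Named were the 10 members, every other PARP family gene, up to 3 genes per list and direction with the smallest adjusted p (mean of at least 100, adjusted p under 0.05) in Met against DMSO, FK against DMSO or Met+FK against Met, and the 5 genes most like PARP1 and TNKS. AXIN1 was named outside this rule, as the other axin beside AXIN2.

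Alternatives were pseudocounts of 0.1 and 10, 2 other filters, scaling to the same total, the replicate block, a fit of only the libraries compared, TMM (edgeR 4.0.16), a loess trend (span 0.3) on GC content and transcript length (GENCODE 44) removed with and without the block, edgeR and DESeq2 1.42.0 on recovered read pairs, and each library left out. Separate blocks for the libraries without and with metformin were added after seeing the data. Libraries with the same number were compared by how each deviated from its group's mean over all genes. The deviations correlated at 0.25, 0.42 and 0.22 for DMSO and FK and at 0.17, 0.20 and 0.23 for Met and Met+FK, all over 0.1. The main fit has no block, so its calls are unpaired. For these 2 pairs of treatments the fits with a replicate block are therefore given beside it as a paired analysis. This pairing rests on the values and not on the labels. With the GC and length trend removed, the last 2 fell to 0.0965 and 0.0687. Other treatments had a correlation under 0.1 in at least 1 pair.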

Additional observations from a re-analysis of the deposited data

How the results depend on the processing

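The counts of members past the test stayed within 1.5 times the reported ones for Met, Met+FK and Met+FK against FK in every alternative. For FK against DMSO, where 4 passed, 2 did with all genes above 0 tested, 0 with only the libraries compared and 2 with the GC and length trend removed, and PARP8 turned to −0.44 (log2) in the last and also with the replicate block added. For the interaction, where none passed, 5 did with the replicate block and 6 with separate blocks. Leaving out 1 library gave 9 to 10 members for Met against DMSO, 0 to 5 for FK against DMSO, 9 for Met+FK against DMSO, 0 for Met+FK against Met, 7 for Met+FK against FK, 5 to 7 for Met against FK and 0 to 1 for the interaction. Without FK replicate 1 the interaction of TNKS2 passed (adjusted p = 0.0454). The paired analysis changed no other member's call in FK against DMSO or Met+FK against Met than those given with the results.

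Of the members' fold changes, 812 values under alternatives other than leaving out a library stayed on their side of the threshold, with the same direction wherever they passed it, 21 lost the threshold, 23 gained it and 2 reversed. With a library left out, 455 stayed likewise, 23 lost it and 2 gained it. Values that did not pass could change sign, such as that of PARP2 for FK against DMSO.

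Over all genes, 3251 passed for FK against DMSO, but 1712 with all genes above 0 tested, 152 with only the libraries compared, 133 without DMSO replicate 1, 380 without DMSO replicate 3, 236 without FK replicate 2, 1555 with the GC and length trend removed and 6854 with the block. Members called DEGs numbered 3 for Met against DMSO, but 5 with libraries scaled to the same total or without DMSO replicate 2. With the GC and length trend removed, TNKS and PARP8 were not DEGs in this comparison. For FK against DMSO the members called DEGs numbered 0, but 1 without DMSO replicate 2 or FK replicate 1. For Met+FK against FK they numbered 4, but 2 with a pseudocount of 10 or without Met+FK replicate 1 or 2. For Met+FK against Met 15 genes passed, but 2 without Met replicate 2 and 538 with the trend removed and the block, and for the interaction 9, but 4914 with the block. Libraries scaled to the same total gave a median over all genes of 0.13 in place of 0.01 (log2) for Met against DMSO, and calls went from 3834 up and 3989 down to 5241 and 2926, while all 10 members kept their calls. Depth limits PARP3 and PARP10 most.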
